A study of Saccharomyces cerevisiae with 68 samples.

Results

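De novo purine synthesis in the budding yeast Saccharomyces cerevisiae is described here through 10 genes: ADE4 (YMR300C), ADE5,7 (YGL234W), ADE8 (YDR408C), ADE6 (YGR061C), ADE2 (YOR128C), ADE1 (YAR015W), ADE13 (YLR359W), ADE16 (YLR028C), ADE17 (YMR120C) and ADE12 (YNL220W). They were taken from the deposited table by the names of their reading frames, of which it holds 6297. All 10 carry these symbols in the RefSeq annotation of assembly R64, with ADE5,7 written there without its comma. ADE17 had stood among the genes furthest below the 25C level in the mean of all strains at 15 min in an earlier look at the same arrays, and which values the other members were selected on is not recorded. The mean response to heat is therefore treated as having chosen all 10 and is given as a description with no test. Differences between strains and the arrays at 25C carry the tests, on the assumption that they played no part in the choice.

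The pathway builds the purine ring step by step on phosphoribosyl pyrophosphate (PRPP), a ribose donor that histidine and pyrimidine synthesis also use, and ends at inosine monophosphate (IMP), from which separate branches lead to AMP and GMP. The transcription factors Bas1 and Pho2 (also called Bas2) activate most ADE genes together when intermediates of the pathway accumulate, and adenine taken up from the medium represses them. The same factors act on genes of histidine and one-carbon metabolism, since the pathway consumes formyl groups carried by folate and since histidine synthesis releases AICAR, a purine intermediate.

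RNA was measured on 68 2-colour arrays, each of which compared 2 RNA samples. In 60 of them, RNA of 1 of 5 strains (DBY8268, K9, M22, RM11-1a and YPS163) taken 5, 15, 30, 45, 60 or 120 min after a shift to 37C was set against RNA of the same strain grown at 25C, with 2 arrays for each strain and time, called series 1 and series 2. In the other 8, RNA of K9, M22, RM11-1a or YPS163 grown at 25C was set against RNA of DBY8268 grown at 25C, with 2 arrays per strain and the dyes exchanged between them. All cultures grew in log phase in YPD, a rich medium that contains adenine, and the shift was made by adding warm medium. DBY8268 is a laboratory strain of the S288c background, K9 is a sake yeast, M22 and RM11-1a come from vineyards, and YPS163 comes from an oak. RM11-1a carries deletions of LEU2 and URA3, and each strain stands for 1 genetic background.

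The deposited values are log ratios, taken as log2, so a negative value means a level below that of the strain's own 25C culture or, on the arrays at 25C, below that of DBY8268. An array in the time courses held between 3418 and 6098 values (median 5304), and an array at 25C held between 4587 and 5659. Replicate arrays correlated across genes with r between 0.293 and 0.949 in the 30 groups of strain and time. The general heat-shock gene HSP104 had a median of 6.29 at 15 min, between 5.35 and 7.50 on 10 arrays. At 25C URA3 was at −6.43 and LEU2 at −5.57 on the 1 RM11-1a array that measured these genes, which the strain lacks. At 60 min the 2 YPS163 arrays, of which that of series 2 is labelled as a technical repeat, correlated with r = 0.461, and they gave different values for the ADE genes (below). All 10 ADE genes entered the tests of the time courses among 4360 genes, with values on 57 to 60 of the 60 arrays. At 25C 9 of them entered among 5306 genes, because ADE2 had a value on 0 of the 8 arrays.

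In the mean of the 5 strains, 9 of the 10 genes lay below their 25C level from 5 to 60 min, while ADE16 lay slightly above it at every time. The median of the 10 genes was −0.90 at 5 min and lowest at 15 min, with −2.68. It was −2.34, −2.14 and −1.71 at 30, 45 and 60 min, and −0.30 at 120 min. Over all genes tested the median lay between −0.04 and 0.11 at the same times. Counted as called by limma at a Benjamini-Hochberg adjusted p under 0.05, 9 members were lower at 5 min, where 36.2% of all genes were. It was also 9 at 15, 30, 45 and 60 min, beside 39.9%, 26.8%, 20.4% and 22.6% of all genes, and it was 5 at 120 min, beside 20.9%. ADE16 was the 1 member counted as higher at 15 min, beside 38.1% of all genes. Since this response is taken to have chosen the members, nothing is read from these counts.

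**Figure D1:**
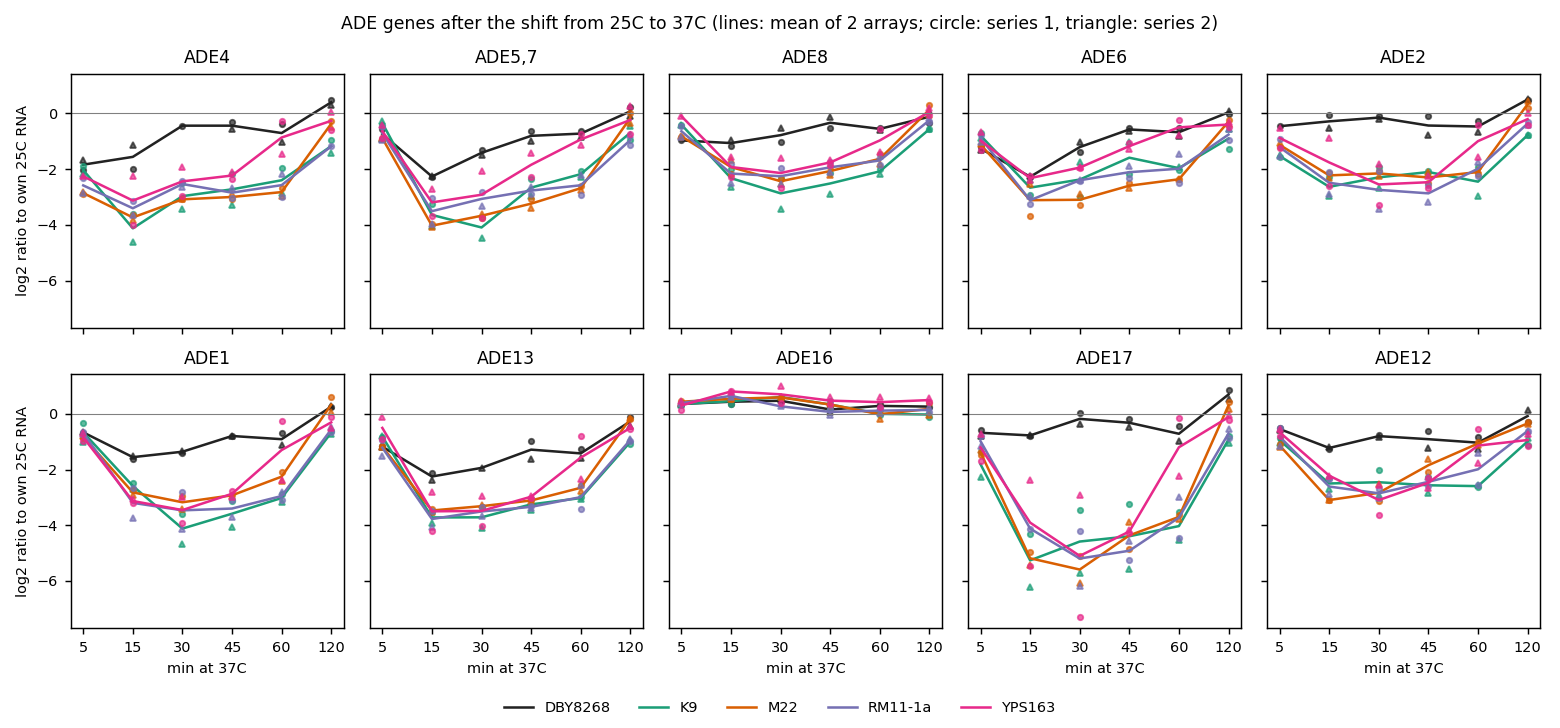
Log2 ratio of each ADE gene to the strain's own 25C RNA (vertical axis) against minutes at 37C (horizontal axis, 5 to 120 min, unequal steps drawn at equal distance). Lines join the means of 2 arrays per strain, circles are series 1 and triangles series 2. The black line of DBY8268 runs above the other 4 strains at 30 and 45 min in every panel except that of ADE16, where all strains stay between −0.17 and 1.00.

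ADE4 encodes the PRPP amidotransferase, the enzyme that commits PRPP to the pathway. It was the member furthest below its 25C level at 5 min, with a mean of −2.32 (SE 0.16, 4.98-fold lower), while the means of the other 8 genes with a decline lay between −0.59 and −1.19. At 5 min ADE4 stood at −2.02 and −1.66 on the DBY8268 arrays, at −1.89 and −2.18 on the K9 arrays, at −2.89 and −2.83 on the M22 arrays, at −2.33 and −2.84 on the RM11-1a arrays and at −2.26 on the 1 YPS163 array that measured it. The strains overlapped at this time. ADE4 was the lowest member on 8 of the 10 arrays at 5 min, and on all 9 arrays that measured it its ratio lay below the median of the other 8 genes with a decline (median difference −1.63). By 15 min the mean of ADE4 was −3.18 (SE 0.15) and no array had it as the lowest member. At 30 min it lay below the median of the other 8 on 0 of the 9 arrays that measured it (median difference 0.42).

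ADE17 and ADE16 encode isozymes of the enzyme that formylates AICAR and closes the ring to give IMP, the last reactions before the branch point, and their transcripts differed most among the members. ADE17 had the lowest mean of the members at 15 min (−3.81, SE 0.33, 14.0-fold lower) and at 30 min (−4.11, SE 0.30, 17.3-fold lower), and it was the lowest member on 6, 6, 8 and 6 of 10 arrays at 15, 30, 45 and 60 min. At 15 min it stood at −0.79 and −0.76 on the DBY8268 arrays, at −4.30 and −6.22 on the K9 arrays, at −4.96 and −5.41 on the M22 arrays, at −4.12 on 1 RM11-1a array and at −5.45 and −2.36 on the YPS163 arrays. Both DBY8268 arrays lay above all others, and the arrays of K9 and of YPS163 differed by more than 1 log2 unit within the strain. At 30 min its values were 0.02 and −0.38 in DBY8268, −3.45 and −5.72 in K9, −5.12 and −6.06 in M22, −4.22 and −6.17 in RM11-1a, and −7.28 and −2.92 in YPS163. The groups of DBY8268 and the other strains again did not overlap. The share of all genes that separate in this way is not given, for ADE17 or the members below. Nothing is therefore read from such separations. ADE17 was also the most variable member, with an SD of 0.94 for 1 array against a median of 0.29 over all genes. By 120 min its mean was −0.13 (SE 0.30).

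ADE16 gave the narrowest values, with an SD of 0.18 for 1 array. Its mean was 0.58 (SE 0.06, 1.49-fold) at 15 min and 0.53 (SE 0.06) at 30 min, and 0.16 (SE 0.06) at 60 min. On the single arrays at 15 min it was 0.34 and 0.53 in DBY8268, 0.35 and 0.56 in K9, 0.55 and 0.53 in M22, 0.68 and 0.61 in RM11-1a, and 0.81 and 0.80 in YPS163. No array at 5, 15 or 30 min had ADE16 below 0. Within an array, the ratio of ADE17 minus that of ADE16 had a median of −4.80 at 15 min and −5.70 at 30 min, over 9 arrays each, and lay between −1.09 and 0.63 at 120 min over 10 arrays. The 2 coding sequences are similar, and how far the spot of each gene also binds the transcript of the other was not tested.

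Among the enzymes of the middle steps, ADE5,7 encodes a protein with both glycinamide ribotide synthetase and aminoimidazole ribotide synthetase activity, and ADE13 encodes adenylosuccinate lyase, which acts both on the way to IMP and on the way from IMP to AMP. These genes followed ADE17 at 15 min, with means of −3.35 (SE 0.12, 10.2-fold lower) for ADE13 and −3.32 (SE 0.13, 10.0-fold lower) for ADE5,7. ADE13 stood at −2.11 and −2.39 in DBY8268 at this time, at −3.51 and −3.93 in K9, at −3.43 and −3.51 in M22, at −3.48 and −4.07 in RM11-1a and at −4.21 and −2.79 in YPS163. ADE5,7 stood at −2.30 and −2.23 in DBY8268, at −3.24 and −4.05 in K9, at −3.97 and −4.09 in M22, at −3.04 and −3.98 in RM11-1a and at −3.68 and −2.71 in YPS163. In both genes the DBY8268 arrays were the highest and did not overlap with the others, although they too lay more than 2 log2 units below the 25C level.

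ADE1, which encodes the synthetase of SAICAR, reached its lowest mean later, at 30 min (−3.14, SE 0.13, 8.81-fold lower, against −2.68, SE 0.13, at 15 min). The means of ADE17, ADE12 (−2.41, SE 0.12) and ADE8 (−2.09, SE 0.11) were also lowest at 30 min. That of ADE2 was lowest at 45 min (−2.04, SE 0.15). The values of ADE1 at 30 min were −1.39 and −1.33 in DBY8268, −3.58 and −4.66 in K9, −2.94 and −3.41 in M22, −2.79 and −4.14 in RM11-1a, and −3.93 and −2.98 in YPS163. DBY8268 again lay above every other array. ADE6, which encodes the synthetase of formylglycinamidine ribotide, was at −2.69 (SE 0.11) at 15 min, and here the strains overlapped: DBY8268 stood at −2.30 and −2.25, and the other 8 arrays lay between −2.25 and −3.68. At 30 min ADE6 was at −1.39 and −1.03 in DBY8268, with the other arrays between −1.75 and −3.29.

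ADE2 encodes aminoimidazole ribotide carboxylase, whose loss makes colonies red, and ADE8 the first formyl transferase of the pathway. Both had a mean of −1.88 at 15 min (SE 0.15 and 0.11), the smallest changes among the 9 genes with a decline. ADE2 was nearest to its 25C level in DBY8268, where it stood at −0.04 and −0.53 at 15 min and at −0.09 and −0.21 at 30 min, while the other strains lay between −0.90 and −2.98 at 15 min and between −1.80 and −3.44 at 30 min. ADE8 stood at −1.16 and −0.97 in DBY8268 at 15 min, with the other strains between −1.57 and −2.64. ADE12, which encodes adenylosuccinate synthetase at the entry of the AMP branch, had a mean of −2.33 (SE 0.13) at 15 min, with −1.26 and −1.19 in DBY8268 and values between −2.22 and −3.11 on the 7 other arrays that measured it. In all 3 genes the DBY8268 arrays lay above the rest at 15 min. Without the share of all genes that separate in this way, nothing is read from it.

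**Figure D2:**
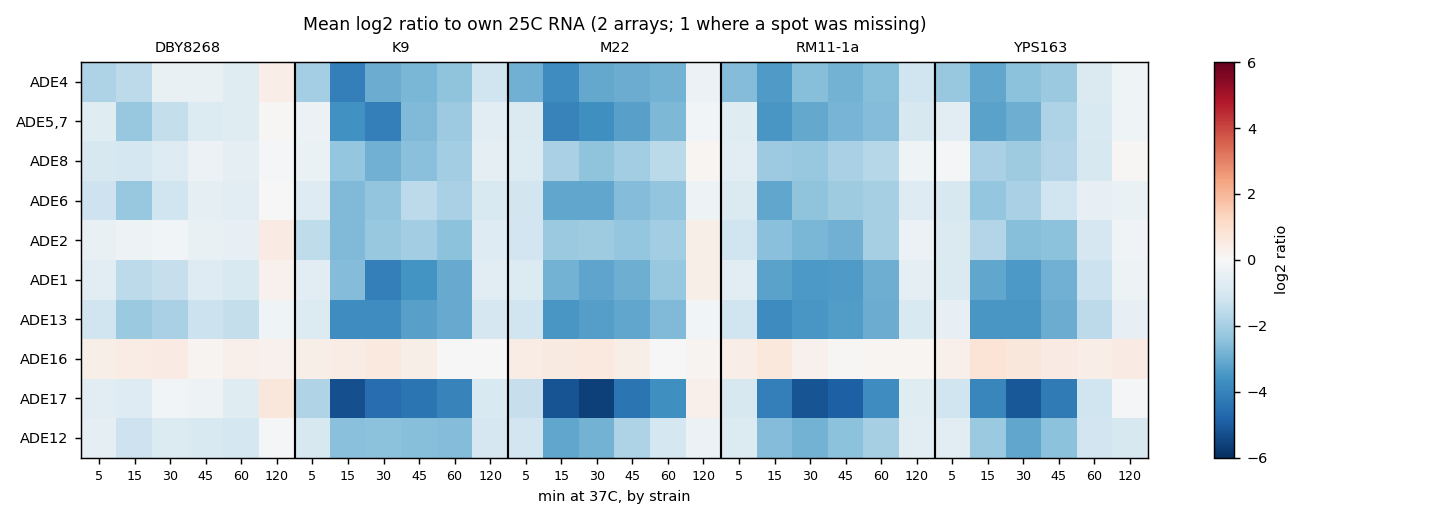
Mean log2 ratio of heated cells over 25C cells of the same strain for the 10 genes (rows) over 6 times in 5 strains (columns), on a colour scale from −6 (blue) to 6 (red). The ADE16 row is near white or pale red in every strain, the ADE17 row is darkest between 15 and 45 min outside DBY8268 (−5.59 in M22 at 30 min), and DBY8268 is paler than the other 4 strains from 15 to 45 min.

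Per strain, the median of the 9 genes other than ADE16 gave the same order on the single arrays. At 30 min it was −0.89 and −0.94 on the DBY8268 arrays, −3.00 and −3.43 on the K9 arrays, −3.14 and −3.09 on the M22 arrays, −2.69 and −3.33 on the RM11-1a arrays and −3.62 and −2.08 on the YPS163 arrays. At 120 min it was 0.23 and 0.15 in DBY8268, −0.94 and −0.79 in K9, 0.00 and −0.14 in M22, −0.86 and −0.55 in RM11-1a, and −0.48 and −0.03 in YPS163. Both DBY8268 arrays lay above 0 at this time, and the arrays of K9 and RM11-1a were the lowest. In DBY8268 7 of the 9 genes had their lowest mean at 15 min, with ADE4 at 5 min and ADE2 at 60 min. In YPS163 5 of the 9 had it at 30 min and 4 at 15 min.

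Differences between the strains were tested first with an F test of the 5 strain means at each time, in which the mean response drops out. At 15 min 8 of the 10 members passed at an adjusted p under 0.05, against 25.4% of all genes tested, and at 30 min 9 passed, against 36.9%. The count was 9 at 45 min, against 22%, and 9 at 60 min, against 24%. At 5 min 0 members passed in limma, against 8.44% of all genes, and at 120 min 0 passed, against 17.5%; at an unadjusted p under 0.05 these counts were 0 and 2. ADE1 gave an adjusted p of 5.65e-05 at 30 min and 4.00e-05 at 45 min (limma), and ADE17 gave 1.47e-04 and 2.41e-03. ADE16 passed at no time (adjusted p between 0.226 and 0.981), and ADE6 did not pass at 15 min (adjusted p = 0.112). The count at 15 min depends on the replicates of DBY8268: it was 0 of 7 tested without series 1 of that strain and 1 of 9 without series 2, and 5 and 4 of 10 without series 1 and series 2 of M22. It was also 3 of 10 with the arrays of each time scaled to 1 spread, 0 with each time fitted alone, and 7 with the series as a replicate block, where ADE8 no longer passed (adjusted p = 0.0714). The share of all genes that passed is not given for these settings. A lower count is therefore not read as particular to the members.

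Between 15 and 60 min most ADE genes stayed closer to their 25C level in DBY8268 than in the mean of the other 4 strains. Set against that mean, DBY8268 was higher at an adjusted p under 0.05 in 8 of 10 members at 15 min (1.9% of all genes), in 9 at 30 min (2.11%), in 9 at 45 min (1.86%) and in 7 at 60 min (1.58%). At 5 min limma called 0 members (0.573% of all genes higher) and at 120 min 0 (0.665%), and at an unadjusted p under 0.05 it called 0 and 3. The median difference over the members was 1.38, 2.01, 1.85 and 1.25 at 15, 30, 45 and 60 min, where over all genes it lay between −0.09 and −0.22. At 15 min 0 members were lower in DBY8268, with or without adjustment of the p, while 8.42% of all genes were. The single arrays overlapped at 60 min, where the median of the 9 genes other than ADE16 was −0.54 and −0.99 in DBY8268. In YPS163 it was −0.41 and −1.58.

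ADE17 differed most, by 3.80 (SE 0.77, limma adjusted p = 0.00141) at 15 min, 4.91 (SE 0.74) at 30 min and 4.13 (SE 0.74) at 45 min. At 60 min its difference of 2.43 did not pass (adjusted p = 0.0713). The differences at 30 min were 2.35 (SE 0.50) for ADE4, 2.29 (SE 0.38) for ADE2, 2.22 (SE 0.33) for ADE1, 2.02 (SE 0.32) for ADE5,7 and 2.01 (SE 0.29) for ADE12. They were smaller for ADE8 (1.64, SE 0.28), ADE13 (1.58, SE 0.42) and ADE6 (1.23, SE 0.28), and all 9 passed. For ADE16 the difference at 30 min was −0.07, with a 95% interval from −0.37 to 0.23. ADE6 did not pass at 15 min, with a difference of 0.51 (SE 0.28, adjusted p = 0.246).

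**Figure D3:**
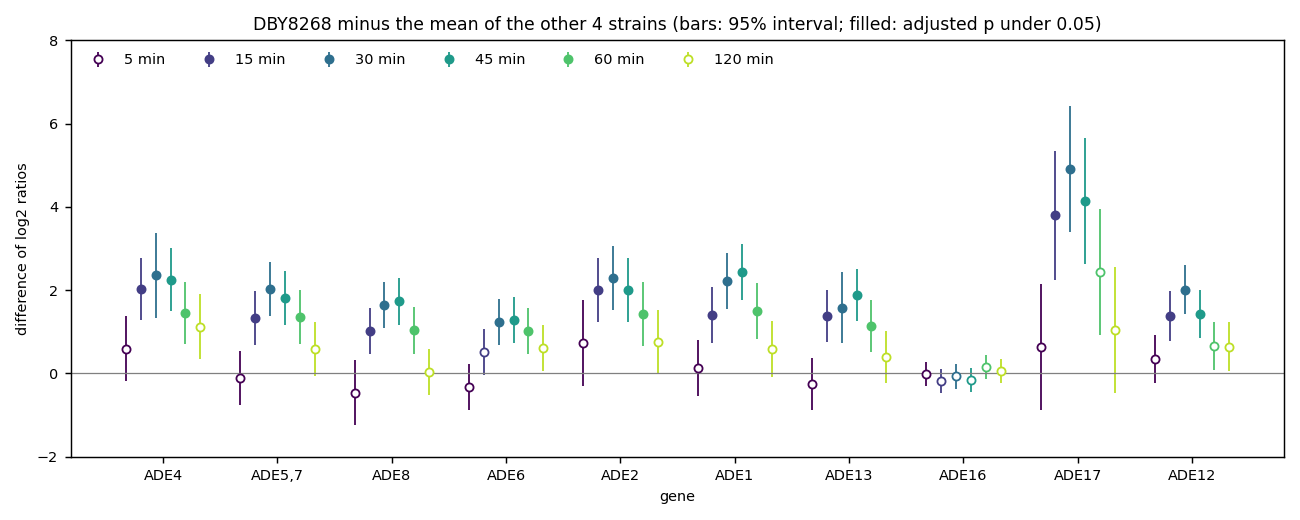
Difference in log2 heat ratio, DBY8268 minus the mean of the other 4 strains (vertical axis), for each ADE gene (horizontal axis) at 6 times (colours), with 95% intervals. Filled points passed an adjusted p under 0.05 and open points did not: 9 genes are filled at 30 and 45 min, ADE17 reaches 4.91 at 30 min, and the ADE16 points stay near 0.

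These calls rest on at most 2 DBY8268 arrays at each time. With each time fitted alone the counts at 15, 30, 45 and 60 min were 0, 1, 8 and 1 of 10, and with the arrays of each time scaled to 1 spread they were 5, 8, 9 and 0. With series 1 of DBY8268 left out 0, 3, 1 and 0 of 7 members tested passed at 15, 30, 45 and 60 min, and with series 2 left out 2, 7, 5 and 0 of 9. At 60 min the count of 7 became 4 with the series as a replicate block, where ADE6, ADE8 and ADE13 did not pass (adjusted p = 0.0545, 0.0526 and 0.0707), 2 without the technical repeat of YPS163, and 2 and 1 without series 1 and series 2 of M22. The array codes in the labels have a prefix that all DBY8268 arrays of the time course share (yg7), so prefix and strain overlap in part. With the prefix as a covariate 2, 8, 6 and 3 of 9 members passed at the same 4 times. For none of these settings is the share of all genes given, so lower counts are not read as particular to the members. At 30 min the arrays of K9, M22 and RM11-1a carry the same prefix as those of DBY8268. At 15 and 45 min those of K9 (yg8) and RM11-1a (yg9) carry another. How far the prefix bears on the differences at single times was not tested.

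With DBY8268 left out, an F test over the other 4 strains passed for 0 members at 5, 15 and 30 min, beside 4.05%, 15.6% and 28.1% of all genes. It passed for 1 member at 45 min (16.6% of all genes), for 6 at 60 min (18.9%) and for 0 at 120 min (13.1%). At an unadjusted p under 0.05 limma gave 0, 0, 1, 2, 9 and 0 members from 5 to 120 min. The gene at 45 min was ADE6 (limma adjusted p = 0.0291). Those at 60 min were ADE1, ADE4, ADE5,7, ADE6, ADE12 and ADE13. A p that misses the threshold does not show that the 4 strains responded alike, and at 15 min their mean over the 4 was −4.53 (SE 0.41) for ADE17, −3.61 (SE 0.14) for ADE13 and −2.09 (SE 0.13) for ADE8.

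Single strains other than DBY8268 differed from the mean of the rest in fewer members. That rest includes DBY8268, whose higher ratios in most members from 15 to 60 min lower these differences. In the F test without DBY8268, ADE1, ADE5,7 and ADE8 did not pass at 30 min (limma adjusted p = 0.232, 0.137 and 0.340). Nor did ADE12 at 15 min (0.434) or ADE6 at 30 min (0.0904), while ADE6 at 45 min and 6 members at 60 min did. K9 was lower in 3 members at 30 min (3.69% of all genes), namely ADE1 (−1.38, SE 0.34), ADE5,7 (−1.29, SE 0.32) and ADE8 (−0.95, SE 0.28), in 2 at 45 min (1.56%) and in 2 at 60 min (1.22%). M22 was lower in 1 member at 15 min (ADE12, −0.96, SE 0.29; 6.49% of all genes), in 1 at 30 min (ADE6, −1.13, SE 0.28; 6.42%), in 2 at 45 min (4.86%) and in 3 at 60 min (7.66%). YPS163 was higher in 5 members at 60 min (4.59% of all genes), ADE1, ADE4, ADE5,7, ADE6 and ADE13. RM11-1a was called lower in 0 members at each of the 6 times in limma, beside 0.115%, 2.11%, 4.08%, 1.72%, 1.38% and 2.45% of all genes from 5 to 120 min. At an unadjusted p under 0.05 it was lower in 6 members at 45 min (8.19% of all genes) and in 5 at 60 min (7.66%), and in 0, 0, 1 and 1 at 5, 15, 30 and 120 min. With the series as a replicate block ADE12 in M22 at 15 min did not pass (limma adjusted p = 0.0582), the K9 counts at 30, 45 and 60 min were 2, 0 and 1, and the YPS163 count at 60 min was 3, without ADE1 and ADE13. K9 was hybridised with 1 dye orientation throughout its time course, so its means rest on the dye term estimated in the other strains.

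The YPS163 values at 60 min differed between its arrays. ADE17 was at −0.16 on that of series 1 and at −2.24 on that of series 2, ADE1 at −0.24 and −2.36, and ADE13 at −0.81 and −2.33. The median of the 9 genes was −0.41 on series 1 and −1.58 on series 2. The array of series 1 was nearer to those of its own series at 45 min (r = 0.758 across genes) and 120 min (0.609) than to those of series 2 (0.405 and 0.253), and that of series 2 was likewise nearer to its own series.

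At 25C, before any heat, 8 of the 9 genes measured were higher in the 4 other strains than in DBY8268. That these arrays played no part in choosing the members is an assumption. K9 was higher in 8 of 9 members (7.86% of all genes tested were higher), M22 in 6 (10.2%), RM11-1a in 7 (7.75%) and YPS163 in 8 (7.99%). The count of lower members was 0 in each strain, and at an unadjusted p under 0.05 it was 1, ADE16 in YPS163. In the mean of the 4 strains, added after the values were seen, 8 members were higher (18.7% of all genes) and 0 lower (22.1%). The 4 strains share DBY8268 RNA as the reference, so their ratios are not independent of each other and the spread of DBY8268 itself is left out.

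ADE4 had the largest ratio, with 1.34 and 2.03 on the K9 arrays, 1.27 and 2.10 on the M22 arrays, 1.96 and 1.69 on the RM11-1a arrays and 1.41 and 1.95 on the YPS163 arrays. Its mean over the 4 strains was 1.72 (SE 0.10), 3.29-fold above DBY8268 (limma adjusted p = 2.60e-05). ADE17 followed with 1.38 and 1.61 in K9, 0.59 and 1.60 in M22, 2.28 and 1.73 in RM11-1a, and 1.32 and 1.32 in YPS163, and a mean of 1.48 (SE 0.12, 2.79-fold). All 8 arrays lay above 0 for both genes. The means of the other genes were 1.28 (SE 0.11) for ADE5,7, 1.07 (SE 0.08) for ADE13, 1.05 (SE 0.09) for ADE1, 0.86 (SE 0.10) for ADE6, 0.80 (SE 0.10) for ADE8 and 0.73 (SE 0.07) for ADE12. These 6 genes too were above 0 on all 8 arrays. The ranges over the 8 arrays overlapped between all neighbours in this order of ratios, from ADE4 to ADE12.

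ADE16 stood apart again, with a mean of −0.12 (SE 0.07, adjusted p = 0.237), values between −0.75 and 0.10 and 4 of 8 arrays above 0. Its lowest values, −0.75 and −0.26, were those of YPS163 (adjusted p = 0.0528). In the other 8 genes, ADE1 in M22 did not pass (0.04 and 0.76, limma adjusted p = 0.160), nor did ADE8 in M22 (0.15 and 0.85, adjusted p = 0.115) or in RM11-1a (0.74 and 0.62, adjusted p = 0.0705). With 1 of the 2 arrays of a strain left out the counts were 0 and 1 of 9 for K9 and 2 for YPS163 with either array, and as low as 1 for M22 and 3 for RM11-1a, so the calls per strain need both arrays.

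**Figure D4:**
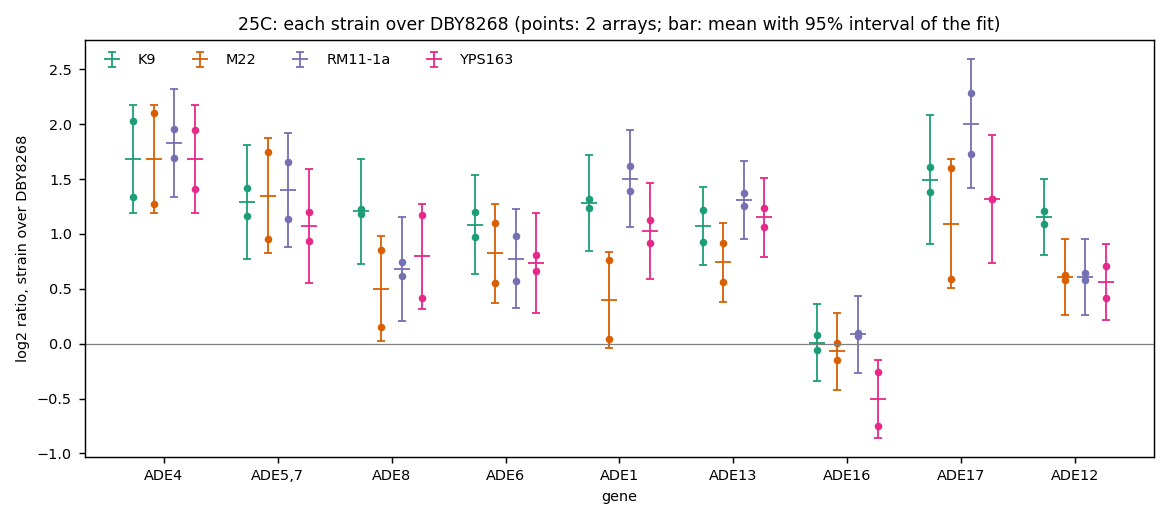
Log2 ratio of each strain over DBY8268 at 25C (vertical axis) for 9 ADE genes (horizontal axis). Points are single arrays, bars the mean of 2 arrays with the 95% interval of the fit: ADE4 lies between 1.27 and 2.10 in all 4 strains, and ADE16 between −0.75 and 0.10.

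Each heat ratio is relative to 25C cells of the same strain, so a gene that starts higher shows a larger fall for the same level at 37C. To place the strains on 1 scale, the 25C ratio over DBY8268 was added to the heat ratio of each strain and compared with the heat ratio of DBY8268. This sum was added after the values were seen, joins separate arrays and is given as a description with its SE. Over the 8 genes with a higher 25C level, which make 32 pairs of gene and strain, 0 sums lay below DBY8268 at 5 min and 3 at 120 min, and 26, 31, 29 and 22 did so at 15, 30, 45 and 60 min. The median difference was 1.12, −0.29, −0.86, −0.91, −0.37 and 0.50 from 5 to 120 min. By sign alone, the sums at 5 min lay above DBY8268, and most of those at 30 and 45 min lay below it. Some were small for their SE, such as 0.015 (SE 0.39) for ADE12 in M22 at 5 min and −0.015 (SE 0.40) for ADE6 in K9 at 30 min. The 4 strains of a gene are set against the same DBY8268 values and the genes moved together, so the pairs are not independent.

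ADE17 showed the largest of these differences. At 15 min its sum minus that of DBY8268 was −2.90 (SE 0.98) in K9, −3.32 (SE 0.97) in M22, −1.25 (SE 1.19) in RM11-1a and −1.81 (SE 0.97) in YPS163, and at 30 min K9 was at −2.82, M22 at −4.32, RM11-1a at −3.01 and YPS163 at −3.60. For ADE13, by contrast, the difference at 15 min lay between −0.10 (YPS163) and −0.48 (M22), each within 2 of its SEs of 0.42. For ADE1 at 30 min (SE 0.46) K9 was at −1.60, M22 at −1.42, YPS163 at −1.07 and RM11-1a at −0.60. ADE4 was within 2 SEs of DBY8268 at 30 min in all 4 strains, between −0.32 and −1.01.

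**Figure D5:**
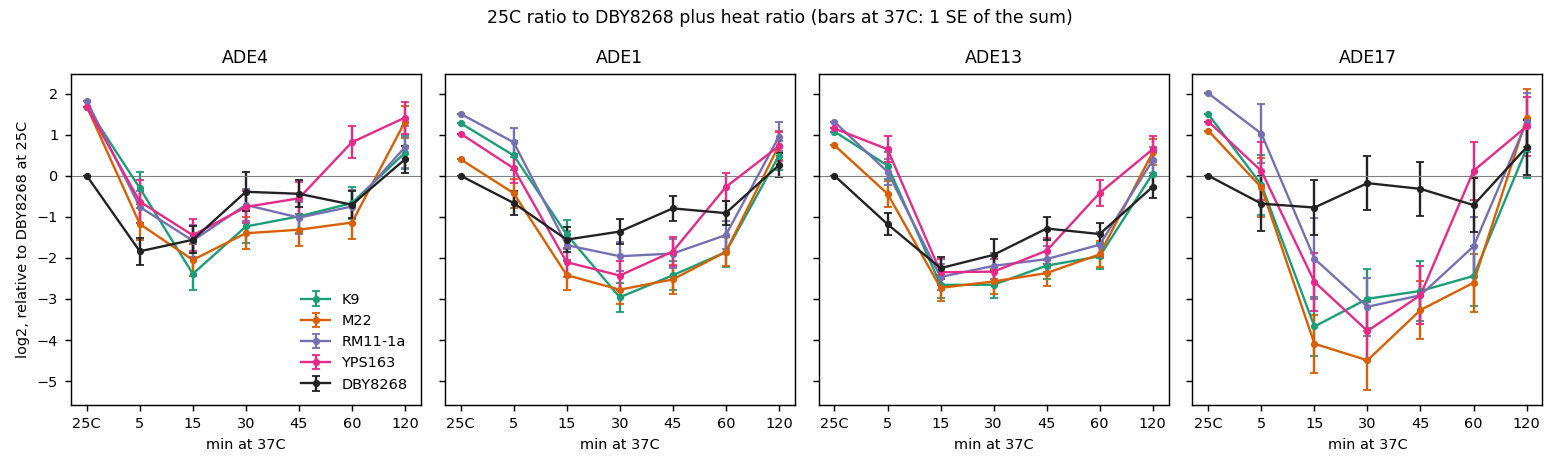
Sum of the 25C ratio over DBY8268 and the heat ratio (log2, vertical axis) for ADE4, ADE1, ADE13 and ADE17 at 25C and over 5 to 120 min at 37C, with bars of 1 SE of the sum at 37C (genes chosen for display after values were seen). The means of all 4 strains start above DBY8268 at 25C, though ADE1 in M22 (0.40) did not pass its test there. At 30 min the 4 strains differ from DBY8268 by −2.82 to −4.32 in ADE17 and by −0.27 to −0.73 in ADE13.

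Across the 30 means of strain and time, the members other than ADE16 moved together. The Pearson r of a member to the mean of all 10 lay between 0.867 for ADE4 and 0.981 for ADE17, and was −0.31 for ADE16. ADE1 and ADE13 were the most alike pair (r = 0.968), and ADE4 was the least like the rest, with its nearest member ADE2 at 0.855. These values describe 30 points that share arrays and 25C references, and carry no test. The mean response, which is taken to have chosen the members, is part of these points, so nothing is read from the likeness. Each member is also part of the mean of all 10, in which a member with wide values weighs more. The 6 genes outside the list with profiles nearest to the members' mean were SER1 (r = 0.939), of serine synthesis, SHM2 (0.917), the cytosolic serine hydroxymethyltransferase, HIS4 (0.900) and HIS1 (0.877), of histidine synthesis, ADE3 (0.862), the trifunctional one-carbon enzyme, and GCV3 (0.859), of the glycine cleavage complex. SHM2 stood at −0.57 in DBY8268 at 15 min, beside a mean of −2.43 (SE 0.25) over the 5 strains. The same 2 values were −1.135 and −1.72 for SER1, −0.645 and −1.89 for HIS4, and −1.60 and −2.42 for HIS1. They were −0.14 and −0.93 for ADE3, and 0.80 and −0.33 for GCV3.

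Of the genes of one-carbon supply, which feed the pathway, 4 of 7 were higher in DBY8268 at 15 min. For all lists, the shares of all genes tested at this time were 39.9% lower and 38.1% higher in the mean response, and 1.9% higher and 8.42% lower in DBY8268 against the other 4 strains. In the mean response 6 of the 7 one-carbon genes were lower and 0 higher, with MTD1, a cytosolic methylenetetrahydrofolate dehydrogenase, lowest at −3.01 (SE 0.13) and GCV3 highest at −0.33 (SE 0.24), which did not pass. The genes higher in DBY8268 differed by 3.15 (SE 0.82) for GCV1, 3.00 (SE 0.32) for MTD1, 2.97 (SE 0.97) for GCV2 and 2.32 (SE 0.63) for SHM2 (limma adjusted p between 2.86e-07 and 0.0456). At 25C 6 of the 7 were higher in the mean of the 4 strains than in DBY8268 (18.7% of all genes), SHM2 most (1.64, SE 0.12), and the mitochondrial SHM1 was lower (−0.87, SE 0.17).

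Of the regulators, BAS1 was at −0.93 (SE 0.13) and GCN4 at −1.12 (SE 0.08) in the mean response at 15 min, and neither passed the test of DBY8268 against the other strains (adjusted p = 0.788 and 0.381). PHO2 lacked a value in some groups and was not tested, with a median of 0.74 on 10 arrays at 15 min. In PRPP synthesis 4 of 4 genes tested were lower at 15 min, and 0 passed the DBY8268 contrast at an adjusted p under 0.05, where PRS3 was nearest (−0.54, SE 0.19, adjusted p = 0.0628).

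In the GMP branch all 6 genes were lower in the mean response at 15 min, between −2.56 for IMD4 and −1.04 for YAR073W, both of the IMP dehydrogenase family, whose near-identical copies may share signal. In DBY8268 1 of these 6 was lower than in the other strains at 15 min, the guanylate kinase gene GUK1 (−0.81, SE 0.26, adjusted p = 0.0456), and 0 were higher. At 25C 5 of the 6 were higher in the mean of the 4 strains (18.7% of all genes), with a list median of 0.42. Among the salvage and interconversion genes 7 of 11 were lower and 2 higher at 15 min. HPT1, which recycles hypoxanthine and guanine, was lowest at −3.97 (SE 0.13), and the IMP-specific nucleotidase gene ISN1 was highest at 0.33 (SE 0.09). DBY8268 was higher in 2 of the 11, the purine-cytosine permease gene FCY2 (1.62, SE 0.26) and HPT1 (1.08, SE 0.33), and lower in the AMP deaminase gene AMD1 (−0.63, SE 0.17).

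In histidine synthesis 6 of 7 genes were lower and 1 higher at 15 min, and DBY8268 was higher in HIS4 (1.55, SE 0.47) and HIS1 (1.03, SE 0.30). Pyrimidine synthesis, which also uses PRPP, had 6 of 9 genes lower and 3 higher, from −3.20 (SE 0.16) for URA7 to 1.82 (SE 0.10) for URA6. Here DBY8268 was higher in 0 genes and lower in 4, URA3 among them. The URA3 value (−1.23, SE 0.28) is not a measure of that gene in all strains, because the mean of the other 4 includes RM11-1a, which lacks it. The other 3 differed by −1.15 (SE 0.29) for URA1, −0.95 (SE 0.22) for URA2 and −0.78 (SE 0.18) for URA4. The same 4 genes were lower in the mean of the 4 strains at 25C (22.1% of all genes), with the same limit for URA3.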

How the data were processed

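The authors deposited 1 log ratio per reading frame and array, taken here as log2. The sources used here do not give the log base, the normalization within arrays, any centring, the array software or the genome build, and scale and centring are therefore unknown. Per the labels' protocols, RNA was extracted with hot phenol and labelled indirectly with cyanine dyes. The values were used as deposited, with no column left without a sample (0). The median of an array was −0.17 to 0.28 for heat arrays and −0.09 to 0.03 for 25C arrays, and the direction of the ratios was checked on HSP104, URA3, LEU2 and the ASP3 genes, which S288c carries and which stood between −4.71 and −7.62 in the other 4 strains.

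Groups came from the labels. A linear model per gene, its variances moderated by limma 3.58.1 (R 4.3.3, statmod 1.5.0), was fitted to the 60 heat arrays, with a mean for each of 30 groups and a term for dye orientation, and likewise to the 8 arrays of cells at 25C, with a mean for each of 4 strains. Genes needed a value in each of the 30 groups, or on at least 6 of the 8 arrays with 1 in each strain. A gene measured on every array had 29 (heat) or 3 (25C) residual degrees of freedom, moderation added 5.68 or 4.17, and the median SD of 1 array was 0.29 and 0.24. P-values were adjusted over all genes tested (Benjamini-Hochberg, threshold 0.05). The fits were tested on simulated data. Figures were drawn with matplotlib 3.10.9 (python 3.11.15).

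The members and the gene lists were chosen with earlier results of these data known. The text names the 10 members, 7 lists of related genes by their counts and extremes, and the 6 genes nearest in profile, and any other gene named from a list was chosen after its values were seen. Gene symbols are those of RefSeq, in which 5832 of 6297 frames matched a locus tag. Whether replicates are separate cultures is not said in the labels. The p-values then rest only on how these samples vary, which may be technical, and the number of arrays limits the precision. Arrays of 1 series share a 25C reference in the labels, except 3 of them, and the deviations of the series from each other correlated across genes between times, with medians from 0.28 to 0.47 per strain and a lowest value of 0.05. This pairing was tried as a replicate block. Other alternatives were the centring and scaling of arrays, the dye term, the array code prefix and number, arrays or replicates left out, each time fitted alone, and complete genes only.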

Additional observations from a re-analysis of the deposited data

Results flagged for a closer look

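The response to heat of 9 genes differed between the 5 strains at 3 or 4 of the 6 times. The values given are limma adjusted p of the F test over strains (2 arrays per strain and time). The 9 genes moved together across strains and times, so their values are not independent of each other. For ADE1 they were 0.0177, 5.65e-05, 4.00e-05 and 0.000289 at 15, 30, 45 and 60 min. ADE2 gave 0.00189, 0.000418, 0.00256 and 0.00784 at the same 4 times. ADE4 gave 0.00144, 0.00513, 0.000786 and 0.00103. The 4 values of ADE5,7 were 0.0124, 6.71e-05, 0.000306 and 0.000365. For ADE6, which did not pass at 15 min, they were 0.00133, 0.000528 and 0.000174 at the later 3 times. ADE8 gave 0.0483, 0.000375, 0.000398 and 0.00875 from 15 to 60 min, and ADE12 gave 0.00304, 5.25e-05, 0.00346 and 0.00334. ADE13 had 0.0150, 0.0358, 0.000805 and 0.00186. ADE17, the gene with the largest differences in log2 ratio, had 0.00306, 0.000147, 0.00241 and 0.0125, with a wide spread between replicate arrays. At 30 min every DBY8268 array with a value lay above every measured array of the other 4 strains in each of these 9 genes. This rests on 2 DBY8268 arrays except for ADE4 and ADE13, which had a value on 1. The 9 genes had passed the F test on the same values. The share of all genes that separate in this way is not given here, so nothing is read from this separation.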

How the results depend on the processing

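The counts of members passing the F test over strains depended on the settings most at 15 min, where 8 of 10 passed. With the arrays of each time scaled to 1 spread 3 passed at 15 min and 5 at 60 min, and 5 strain contrasts passed at 15 min in place of 9. The array code prefix as a covariate gave 4 at 15 min and 2 contrasts. With each time fitted alone, which leaves few residual degrees of freedom, the counts were 0 at 15 min, 1 at 30 min and 1 at 120 min, with 0 contrasts. Complete genes only left 3 members to test, of which 2, 3, 3 and 3 passed at 15, 30, 45 and 60 min, with 3 contrasts and a median mean response of −3.03 at 30 min. Without DBY8268, chosen after seeing the data, 0, 0 and 1 passed at 15, 30 and 45 min, and the median at 30 min was −2.77. Without 1 series or array in turn, the counts ranged from 0 to 1 at 5 min, 0 to 9 at 15 min, 5 to 9 at 30 min, 3 to 9 at 45 min, 5 to 10 at 60 min and 0 to 5 at 120 min, and the contrasts from 1 to 18; the lowest came without series 1 of DBY8268 and the highest contrast count without series 1 of YPS163, which also gave 1 at 5 min and 5 at 120 min. Without series 2 of YPS163 5 of 7 members passed at 15 min and 4 at 120 min. At 25C the ranges were 0 to 8 for K9, 1 to 6 for M22, 3 to 7 for RM11-1a and 2 to 9 for YPS163. The replicate block on the series (consensus correlation 0.340) gave 7 members in the F test at 15 min, without ADE8, and 8 contrasts at 15 min in place of 9, without ADE12 in M22. In DBY8268 minus the other 4 strains it gave 4 members at 60 min in place of 7, and it changed no other call of that contrast or of the F test. In the other strains it also ended the calls of ADE8 in K9 at 30 and 45 min (adjusted p = 0.0575 and 0.0848), of ADE1 in K9 at 45 and 60 min (0.0944 and 0.0835), and of ADE1 and ADE13 in YPS163 at 60 min (0.0852 and 0.0838). At 25C the fit with no replicate block, which has no dye term, gave the same counts of 8, 6, 7 and 8. No value that passed its test changed sign under these settings, while 12 values that did not pass or had no test did. Of the counts and medians recomputed, 252 stayed within the limits set for them and 39 moved. Fewer members or arrays entered the fits where fewer than 10 members are given. Otherwise the cause was not tested. In the time courses, the ranges with 1 series left out join fits with 7 to 10 members tested. Without series 1 of DBY8268 the number tested was 7. The share of all genes that passed is given only for the main fit and the fit without DBY8268. With 2 arrays per group, and 1 dye orientation in K9, the arrays limit the precision, and the members' calls per strain rest on the spread pooled over all groups.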

Other observations

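The single members behind the counts of the strain contrasts were these, each against a mean that includes DBY8268. In K9 ADE1 and ADE8 were lower than the mean of the other 4 strains at 45 min, by −1.21 (SE 0.34) and −0.975 (SE 0.28), and ADE1 and ADE12 at 60 min, by −1.29 (SE 0.34) and −1.28 (SE 0.29). With the series as a replicate block ADE12 alone of these 4 K9 calls passed. In M22 ADE5,7 and ADE6 were lower at 45 min, by −1.23 (SE 0.32) and −1.25 (SE 0.28), and at 60 min so were ADE4 (−1.20, SE 0.37), ADE5,7 (−1.09, SE 0.32) and ADE6 (−1.10, SE 0.28).

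In the mean response at 120 min 20.9% of all genes tested were lower than at 25C and 30.7% higher. In the GMP branch 5 of 6 genes were lower and 0 higher (list median −0.51), with IMD2 at −1.17 (SE 0.21) and IMD4 at −0.53 (SE 0.09), and the guanylate kinase gene GUK1 at 0.02 (SE 0.11) did not pass. Among the salvage genes 2 of 11 were lower and 2 higher, near or below those shares, with XPT1, which encodes xanthine phosphoribosyltransferase, at 0.64 (SE 0.08). Of the regulators BAS1 was higher (0.34, SE 0.13) and GCN4 lower (−0.22, SE 0.08). The adenine deaminase gene AAH1, at −2.38 (SE 0.14) at 15 min, was at 0.11 (SE 0.13) at 120 min. Of histidine synthesis HIS1 was lower (−0.87, SE 0.12) and HIS2 higher (0.63, SE 0.10) at that time.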
